A study of Drosophila melanogaster with 3 samples.

Results

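Of the 4555 reproducible Sox15 peaks of whole Drosophila melanogaster prepupae, 738 lay between genes (16.2%, 95% Wilson interval 15.2 to 17.3%). A peak was counted as intergenic when its summit was more than 500 bp from every annotated transcription start site and inside no annotated gene of any kind, with transposable elements left out of the gene set. Bases that meet this rule made up 27.2% of the length of the arms, a larger share than that of the peaks. They held 20.2 summits per megabase, against 39.2 per megabase for the other peaks over the remaining bases. The remaining peaks were 1936 inside genes and 1881 at promoters, within 500 bp of a start site. The series has 1 group of 3 biological replicates, immunoprecipitated with an anti-GFP antibody from a transgenic line stably expressing Sox15 with GFP fused to its C terminus. Males and females were pooled, the age within the prepupal stage is unknown per the labels, and there is no untagged or untreated group to compare with. Whole animals were used, so a peak can come from any tissue, and occupancy in few cells cannot be told apart from weak occupancy in many.

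Sox proteins are transcription factors that bind the minor groove of short A/T-rich sites around an ACAAT core through their high-mobility-group (HMG) domain, and in Drosophila Sox15 is known for roles in the socket cell of the sensory bristle and in the wing hinge. Intergenic DNA in flies holds many enhancers, the sequences that switch nearby genes on in particular tissues, and these can act over long distances and on either neighbour. The prepupa is the short stage at which ecdysone pulses start metamorphosis. The flanking genes named here are neighbours by position, and no target of any peak was measured.

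The sequences below show what strong intergenic summits look like. They are the second, the third and the fourth strongest intergenic peaks, followed by the 2 strongest that contain AACAAT. Each covers 100 bp on either side of the summit on the plus strand of the dm6 assembly (RefSeq Release 6). Capitals mark the Sox patterns ACAAT and ACAAAG on either strand. The first and the third contain neither pattern.
CG43245 to lncRNA:CR44544, chr3L:10776474-10776674: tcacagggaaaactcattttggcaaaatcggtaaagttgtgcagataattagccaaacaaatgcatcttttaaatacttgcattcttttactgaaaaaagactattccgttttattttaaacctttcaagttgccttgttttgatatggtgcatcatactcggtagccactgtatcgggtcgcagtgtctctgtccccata
COX7AL2 to CG31668, chr2L:2202333-2202533: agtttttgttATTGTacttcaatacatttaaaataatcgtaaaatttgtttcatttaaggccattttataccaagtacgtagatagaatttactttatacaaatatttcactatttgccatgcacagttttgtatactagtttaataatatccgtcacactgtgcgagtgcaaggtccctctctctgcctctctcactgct
CG7560 to CG6149, chr3L:11431351-11431551: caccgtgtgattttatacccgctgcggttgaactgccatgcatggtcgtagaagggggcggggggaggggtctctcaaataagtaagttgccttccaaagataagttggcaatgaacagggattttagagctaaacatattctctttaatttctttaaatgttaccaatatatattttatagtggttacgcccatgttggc
hid to lncRNA:CR45234, chr3L:18195082-18195282: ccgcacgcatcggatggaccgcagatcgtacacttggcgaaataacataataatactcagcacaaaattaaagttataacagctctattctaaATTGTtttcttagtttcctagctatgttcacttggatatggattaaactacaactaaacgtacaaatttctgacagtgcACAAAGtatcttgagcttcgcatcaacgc
lncRNA:CR45937 to lncRNA:CR45936, chr3L:18235925-18236125: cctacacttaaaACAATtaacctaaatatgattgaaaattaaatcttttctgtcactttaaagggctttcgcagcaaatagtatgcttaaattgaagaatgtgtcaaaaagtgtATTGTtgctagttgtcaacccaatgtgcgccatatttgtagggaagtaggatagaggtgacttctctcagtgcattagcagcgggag
Of these windows, the second had 1 Sox match, and the fourth and the fifth had 2 each. The GC content of the 5 windows was 37.3%, 32.3%, 42.3%, 37.8% and 36.8%, in the order printed. Their signals in the reproducible set, the authors' values on a scale that is not stated, were 1831, 1805, 1118, 802.3 and 793.6.

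Intergenic peaks had a lower median signal than the other classes. Their median signal was 182.6 (quartiles 141.7 and 272.8), against 200.2 inside genes and 222.2 at promoters. With the reproducible set ordered by signal and divided into 4 parts of equal size, they made up 11.95% of the strongest part (136 of 1138 peaks), then 14.9%, 18.0% and 19.9% (227 of 1139) of the following ones. In the 4555 strongest peaks of each replicate, classed by their own summits, the intergenic median was 0.828, 0.790 and 0.823 times the promoter median. It was lower in 3 of 3 replicates (mean ratio 0.814 ± 0.0208, SD), and the exact two-sided sign-flip permutation test gave p = 0.25, the smallest that 3 replicates allow. The same replicate lists held 732, 747 and 766 intergenic summits, a share of 16.4% ± 0.374 (SD, n = 3). Read depth is unknown, and the intervals on shares cover counting error only.

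The authors also deposited peaks called on the pooled replicates. Of these 14164 peaks, 3064 met the intergenic rule (21.6%), and 24.1% of these were in the reproducible set, against 28.3% of those inside genes, 44.1% of those at promoters and 32.2% of all pooled peaks. The reproducible set was the strongest part of the pooled list, so these shares follow from signal and are not separate evidence. In the replicates, 90.5%, 88.6% and 85.5% of the intergenic peaks were covered over at least 50% of their length by one of the 4555 strongest peaks of replicate 1, 2 and 3. All 3 replicates covered 516 of 738 (69.9%, 95% interval 66.5 to 73.1%), against 73.4% of the whole set. The share differed with signal: 96.2% of the stronger 369 intergenic peaks and 43.6% of the weaker 369 were covered in all 3, and a match needs a high signal in each replicate. Of the rest, 184 were matched in 2 replicates, 37 in 1 and 1 in none.

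The strongest intergenic peak (chr2R:13035161-13035500) had a signal of 2631 and ranked 5 of the 4555. Its signals in replicates 1, 2 and 3 were 1295, 709.8 and 639.2, and it ranked 5, 7 and 7 in those lists. It lay in a 36783 bp gap between the convergent genes Su(z)2, a relative of the Polycomb group gene Psc, and CG13323, whose start site was the nearest at 11918 bp. This peak stood well above the others of its kind, since the next ranked 27.

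The second (signal 1831, rank 27, the first shown above) had 845.1, 532.4 and 451.9 in replicates 1, 2 and 3, and lay 4649 bp from the start site of CG43245. The third (1805, rank 28) had 947.3, 474.2 and 386.6, and lay in a 5808 bp gap between COX7AL2, which encodes a cytochrome c oxidase subunit, and CG31668. The start site of CG31668 lay 3733 bp away, and the same gap held another of the 12 strongest, with 964.3, 1436 bp upstream of COX7AL2. The fourth (1118) lay between CG7560 and CG6149, with 467.6, 360.8 and 292.3 in the 3 replicates, and 4025 bp from the CG6149 start site. The 4 strongest peaks ranked 122 or better in each replicate, and the second peak beside COX7AL2 ranked 161 or better.

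The remaining 7 of the 12 strongest had signals of 802.3 to 948.8. One (948.8) lay 11598 bp upstream of CG43245, in the gap next to NijA, which encodes a ninjurin membrane protein. One (934.1) lay between Pex7, a peroxisomal import receptor gene, and hry, the gene hairy of a basic helix-loop-helix repressor of segmentation and bristle patterning. The nearest protein-coding start site there was that of Pex7 at 7405 bp, and hry lay 18883 bp away. One (832.2) lay 521 bp beyond the 3' end of CG13898, whose start site was 1145 bp away, in a gap whose other border is the isoleucine tRNA gene tRNA:Ile-TAT-1-2. One (830.3) lay 2620 bp upstream of kay, the gene of Drosophila Fos, with lncRNA:CR44953 on its other side. One on the X (823.9) lay 935 bp upstream of CG43658, with ppk23, a sodium channel subunit gene of pheromone-sensing neurons, on the other side. One on 2L (810.2) lay between lncRNA:CR44988 and lncRNA:CR46260 and 588 bp from a start site of ds, which encodes the cadherin Dachsous. One (802.3, the fourth shown above) lay 9541 bp upstream of the cell death gene hid and 990 bp from lncRNA:CR45234, with the start site of CG7320 the nearest protein-coding one at 6312 bp. Of the 12, the peak near ds was matched in 2 replicates and the other 11 in all 3.

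**Figure D1:**
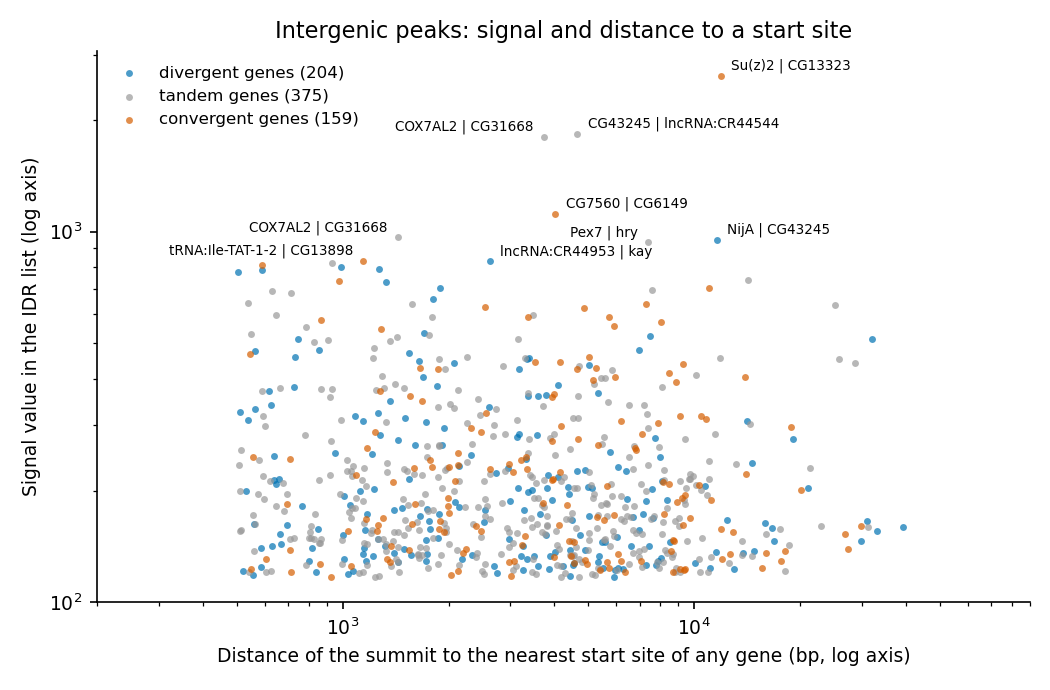
Signal of the 738 intergenic peaks in the reproducible (IDR) set against the distance of their summit to the nearest start site, both on log axes, coloured by the arrangement of the flanking genes. The peak between Su(z)2 and CG13323 stands alone at 2631, and peaks of high and low signal occur at most distances.

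Most intergenic summits lay within a few kilobases of a gene. The median distance to the nearest start site of any gene was 3262 bp (quartiles 1412 and 6055 bp), against 5942 bp for all bases that meet the rule. Beyond 2 kb lay 460 summits (62.3%), beyond 5 kb 244 (33.1%), beyond 10 kb 72 (9.76%) and beyond 20 kb 16 (2.17%). To the nearest protein-coding start site the median was 4999 bp, and 196 summits (26.6%) were beyond 10 kb. The nearest gene edge was at a median of 2176 bp. That edge was a 5' end for 391 summits (53.0%, 95% interval 49.4 to 56.6%), against 45.5% of the bases that meet the rule, and a 3' end for 347. Within 500 bp of a gene edge lay 62 summits (8.40%), all of them at 3' ends, since the rule keeps summits away from start sites.

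Summits thinned with distance from start sites. Per megabase of bases that meet the rule there were 36.1 summits at 0.5 to 1 kb, 38.6 at 1 to 2 kb, 24.1 at 2 to 5 kb, 24.0 at 5 to 10 kb, 11.2 at 10 to 20 kb and 2.02 beyond 20 kb. In the replicates' own lists the density was 40.8 ± 1.75 at 0.5 to 1 kb, 23.7 ± 0.290 at 5 to 10 kb and 2.31 ± 0.192 beyond 20 kb (SD, n = 3 each). The drop beyond 10 kb was far larger than the spread between replicates. Annotated transposable elements made up 4.12% of the nearest of these bases and 16.7% of the farthest. With their bases left out, an alternative added after seeing the data, the density was 37.7 in the nearest bin and 2.42 in the farthest. The median signal was 204.1 at 0.5 to 1 kb and 163.0 beyond 20 kb, where 16 peaks were counted.

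**Figure D2:**
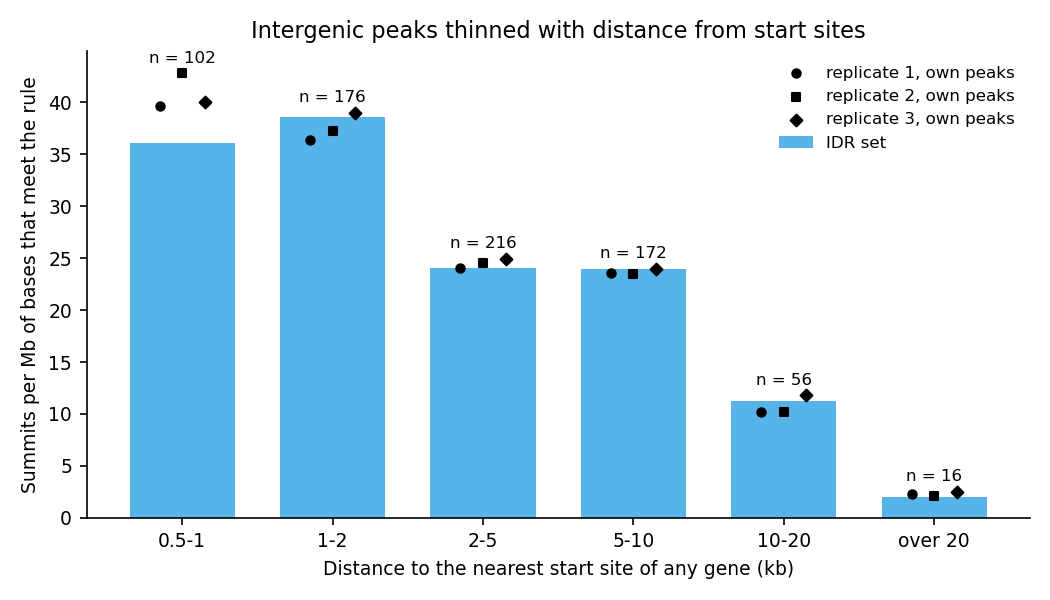
Intergenic summits per megabase of bases that meet the rule, by distance to the nearest start site; bars are the reproducible set with its number of summits, points the 4555 strongest peaks of each replicate. Density is near 36 to 39 per megabase up to 2 kb and 2.02 beyond 20 kb, and the replicates lie close together in every bin.

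The 5 summits farthest from any start site lay 31017 to 39309 bp away. The farthest (3R, summit at 15596159, signal 159.1) lay in an 82634 bp gap between AOX4, an aldehyde oxidase gene, and CG43335. Its signals were 80.9, 37.7 and 36.2 in replicates 1, 2 and 3. Next came 3 summits about 1 kb apart in the gap between NijA and CG43245, with signals of 155.5, 512.0 and 165.2 and distances of 32987, 31990 and 31017 bp. The remaining one lay 31228 bp from the start site of Tollo, which encodes a Toll-like receptor, and had a signal of 159.0. Around the cutoff of 500 bp, the members nearest to a start site lay 502 bp from CG17896 (signal 778.7), 507 bp from ft (234.1) and 510 bp from Nep2 (155.1). Just outside it, peaks lay 500 bp from CG6602 (180.9), 498 bp from CG8180 (154.9) and 497 bp from Mkp3 (243.5).

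Gaps between divergently transcribed genes held more summits than their share of bases. Divergent genes flanked 204 summits (27.6%, 95% interval 24.5 to 31.0%), against 21.1% of the bases that meet the rule. Tandem genes flanked 375 (50.8%, 47.2 to 54.4%), against 52.5% of bases, and convergent genes flanked 159 (21.5%, 18.7 to 24.7%), against 26.5%. In the replicates' own lists the divergent share was 28.0% ± 0.730 and the convergent share 21.6% ± 0.932 (SD, n = 3 each). All 3 replicates lay above the share of bases for divergent gaps and below it for convergent gaps. Members of a gap share its arrangement, and the divergent gap between NijA and CG43245 alone held 12 of the 204 summits. The intervals and the replicate spread do not allow for this, and the arrangement was not counted by gaps. Summits in divergent gaps were also nearer to a start site, at a median of 2975 bp, against 4025 bp in convergent gaps, and what part that distance has in the difference was not tested. The median signal was 178.5 in divergent, 181.0 in tandem and 191.4 in convergent gaps.

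Protein-coding genes stood on both sides of 330 summits (44.7%, against 49.8% of the bases that meet the rule) and on neither side of 106 (14.4%, 95% interval 12.02 to 17.1%, against 9.42% of bases). Of the 1476 flanking positions, 962 were held by protein-coding genes, 468 by genes of non-coding RNA, 37 by tRNA genes, 7 by pseudogenes and 2 by small nuclear RNA genes.

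Some gaps held several intergenic peaks. The 738 members lay in 453 gaps, of 6516 gaps that hold bases meeting the rule (6.95%), and 311 of those 453 held 1 member. The 142 gaps with 2 or more held 427 members (57.9%). The 66 gaps with 3 or more held 275 members (37.3%). Members of a gap share their flanking genes, and 61 members overlapped another reproducible peak, so neighbouring members are not independent regions.

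The gap with the most members was the 75047 bp between NijA and CG43245 on 3L, with 12. Their signals were 137.1 to 948.8, and 8 were matched in all 3 replicates. They formed a group of 5 at 12380 to 16885 bp from NijA, a group of 3 at 42061 to 44031 bp, and 4 at 54026 to 63450 bp. The strongest of them (948.8) had 479.7, 228.6 and 239.2 in replicates 1, 2 and 3, and the next (512.0) had 253.7, 145.2 and 110.3. The pooled list held 26 peaks in this gap. The second strongest intergenic peak of all lay beyond CG43245, in the next gap, so both sides of this gene were occupied.

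The next gap, 32964 bp between tRNA:Ile-TAT-1-2 and CG13898 on 3L, held 10 members with signals of 118.6 to 832.2, of which 6 were matched in all 3 replicates. Its strongest members, 832.2 near CG13898 and 703.6 at 10903 bp from the tRNA gene, had 319.2, 251.7 and 259.9, and 351.9, 193.4 and 152.4, in replicates 1, 2 and 3. The protein-coding gene on the tRNA side is hng3. The gap between hng3 and the sister gene tRNA:Ile-TAT-1-1 held another 5 members, with signals up to 477.6. The third, 18664 bp between CG18404 and lncRNA:CR46113 on 3R, held 9 members, or 4.82 per 10 kb. Their signals were 127.3 to 575.4, and 7 were matched in all 3 replicates. The strongest of them lay 76 bp from the 3' end of lncRNA:CR46113, with 302.3, 153.8 and 109.8 in the 3 replicates.

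A further 9 members lay between CG17154 and vers on 3L. They were weak, at 118.8 to 282.8, and 3 were matched in all 3 replicates. Gaps below the third in number are named here after their values were seen. The 33567 bp upstream of Eip93F, the gene of the ecdysone-induced factor E93 that directs adult development during metamorphosis, held 8 members with signals of 120.3 to 693.8. The strongest lay 7588 bp from the gene and had 335.4, 186.7 and 180.3 in replicates 1, 2 and 3, and it was matched in 2 of them. The 24747 bp between Pex7 and hry held 6 members, including 294.1 and 339.7 at 7378 and 6502 bp from hry.

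**Figure D3:**
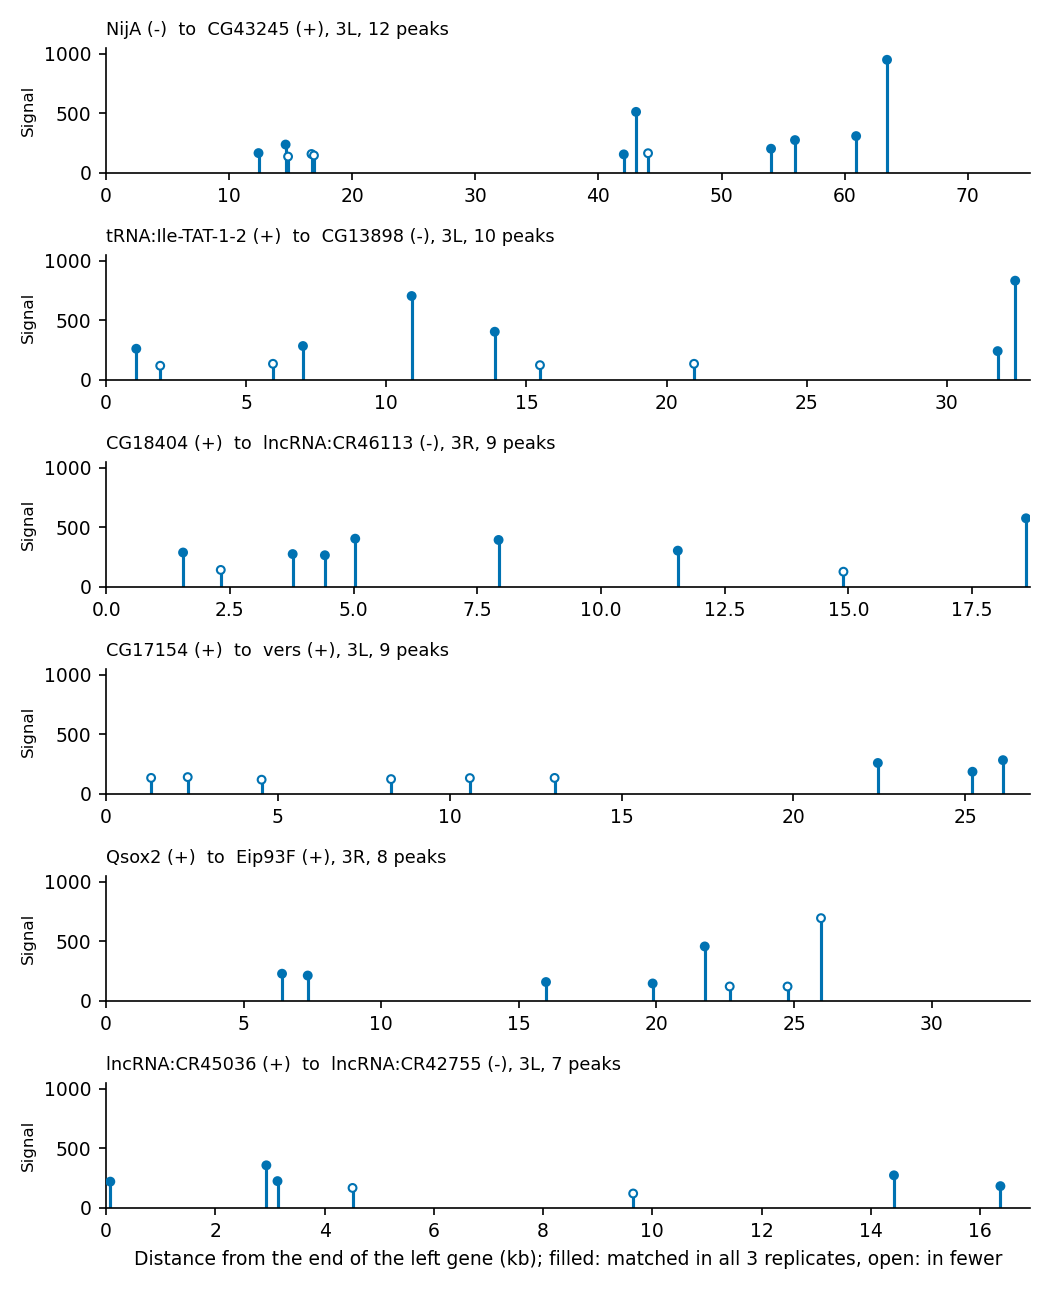
Positions and signals of the members in the 6 gaps with the most members, as distance in kilobases from the end of the left gene; strands are given in brackets, filled points were matched in all 3 replicates and open points in fewer. The string between NijA and CG43245 falls into separate groups, and its strongest peak (948.8) is the one nearest to CG43245.

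The density of intergenic peaks differed between arms. Arm 3L held 266 of the 738 members (36.0%) on 24.9% of the bases that meet the rule, or 29.3 per megabase. Arms 2L, 3R and 2R had 21.4, 20.1 and 14.4 per megabase, the X had 12.4 (66 members) and the small chromosome 4 had 1 member in all. In the replicates' own lists 3L had 28.9 ± 0.664 and the X 13.2 ± 0.863 per megabase (SD, n = 3 each). The ratio of 3L to the X was 2.41, 2.08 and 2.11 in the replicates, and with bases in transposable elements left out it was 2.36 in the reproducible set, against 2.36 with them. The other reproducible peaks did not show this order: outside the intergenic bases the X had 43.6 per megabase and 3L 39.3, a ratio of 0.901, and the ratio was 0.923, 0.869 and 0.833 in the 3 replicates. So the ratio for intergenic peaks was above 1, and that for other peaks below 1, in 3 of 3 replicates. Counted by gaps, which removes the strings, the difference was smaller: gaps with at least 1 member numbered 15.2 per megabase on 3L and 8.66 on the X, a ratio of 1.76. Median signals on 3L and the X, 183.1 and 183.0, were almost equal.

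**Figure D4:**
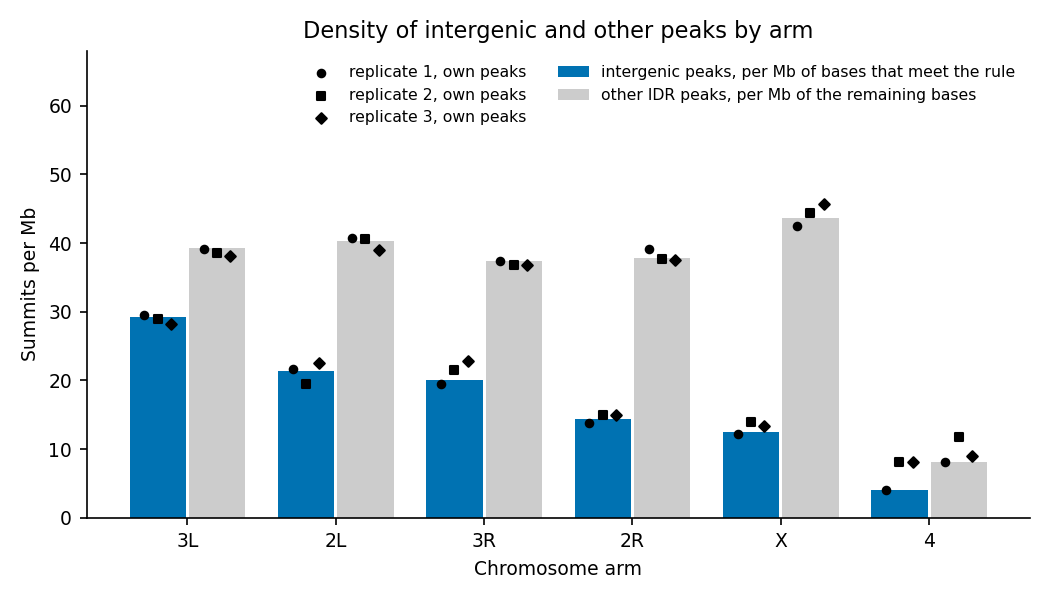
Summits per megabase on each arm for intergenic peaks (over bases that meet the rule) and for all other reproducible peaks (over the remaining bases); bars are the reproducible set and points the 4555 strongest peaks of each replicate. Intergenic density is 29.3 on 3L and 12.4 on the X, while the other peaks have 39.3 and 43.6.

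Annotated transposable elements were almost free of summits. They make up 10.8% of the bases that meet the rule and held 1 member (0.136%, 95% interval 0.0239 to 0.764%), in a copy of INE-1 on 2L between C1GalTA and CG31886, with a signal of 166.3. In the replicates' own lists 1, 1 and 2 intergenic summits lay in them, and in the pooled list 18 of 3064 (0.587%). The sources do not say how reads from repeats were mapped, so a lack of occupancy and a lack of mapped reads cannot be told apart.

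The genes beside intergenic peaks were then counted by list. A gene could be counted if it borders a gap with bases that meet the rule, and of 9316 such genes 840 flanked a member (9.02%). With non-coding genes ignored, the nearest protein-coding genes on either side were 730 of 7861 (9.29%). Genes with long gaps can hold more peaks, so the density of members in the bordering bases is given beside each count, against 21.02 per megabase for all bordering genes. A gap is counted once for each of its genes, a pair of neighbours in a list shares its members, and no list was tested.

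Wing patterning and Wingless genes were among the lists with higher counts, read against 9.02% for all bordering genes. Of the wing hinge list 8 of 24 genes flanked a member (33.3%, 95% interval 18.0 to 53.3%), with 47.0 members per megabase, and 11 of 26 did so as the nearest protein-coding gene (42.3%). These genes border a median of 12.8 kb of bases that meet the rule, against 1.52 kb for all bordering genes. The density of the wing hinge list rests on 17 members, of which 5 flank wg and 4 lay between lncRNA:CR43681 and salm. The highest signal was 426.3, with 205.9, 88.6 and 124.3 in replicates 1, 2 and 3, in the gap between lncRNA:CR15061 and upd1. The nearest protein-coding genes on its sides were upd3 and upd1, which encode ligands of JAK/STAT signalling. It was followed by 311.4 at 1940 bp downstream of Dr, a homeobox gene, with 146.1, 74.1 and 83.0 in the replicates. Of the Wingless list, 6 of 16 genes flanked a member (37.5%, 95% interval 18.5 to 61.4%), with 68.6 members per megabase. That density rests on 8 members, of which 5 flank wg, a gene that is in both lists. The receptor gene fz had a member of 526.7 lying 1764 bp upstream, with 276.6, 141.5 and 116.4 in the replicates. The neighbouring ligand genes Wnt6 and Wnt10 shared one of 388.5, with 165.8, 120.2 and 95.7 in the replicates. The gene wg itself, of the Wingless ligand, is named beyond the 3 highest of the list, and nkd had a higher member (232.3). It was wg that flanked 5 members, the highest with 194.3 at 3843 bp downstream. Of the 3 downstream members 2 were matched in all 3 replicates. The 2 upstream members, in the gap next to Wnt4, were weak (117.8 and 123.3), and 0 of them were matched in all 3.

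Of 21 Notch pathway genes 3 flanked a member (14.3%, 95% interval 4.98 to 34.6%, which includes the background), and 6 did so as the nearest protein-coding gene (28.6%, 95% interval 13.8 to 49.96%). The 78.8 members per megabase around the list rest on 6 members. A member of 656.7 lay 3069 bp upstream of E(spl)mbeta-HLH and 1801 bp upstream of E(spl)malpha-BFM, Enhancer of split genes activated by Notch, with lncRNA:CR45039 on the side of the first of them. It had 348.7, 170.9 and 141.0 in replicates 1, 2 and 3. A member of 640.7 lay 734 bp upstream of fng, which encodes a glycosyltransferase that modifies Notch, with 325.5, 181.2 and 127.6 in the replicates. Ecdysone genes gave 8 of 38 (21.1%, 95% interval 11.1 to 36.3%) and 39.1 members per megabase, led by hid with 802.3, Eip93F with 693.8 and, as the nearest protein-coding gene, the lactate dehydrogenase gene Ldh with 254.3. This count and density include Sgsh (120.4), which entered the list only through the symbol prefix Sgs of the glue protein genes and is not one of them. The density of the ecdysone list rests on 17 members, of which 8 lay in the gap upstream of Eip93F and 4 in that between hid and lncRNA:CR45234. All 5 members whose nearest protein-coding gene on one side was hid lay on its upstream side, the strongest with 411.5, 208.3 and 179.0 in the replicates.

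Homeobox genes combined a high count with a density below that of all bordering genes. Of these, 10 of 46 flanked a member (21.7%, 95% interval 12.3 to 35.6%), but they border a median of 10.6 kb of bases that meet the rule, against 1.52 kb for all bordering genes, and had 17.1 members per megabase. The highest were 530.1 at C15, 242.6 at tup and, as nearest protein-coding gene, 235.9 at Antp, the Hox gene of the second thoracic segment. Of the sensory bristle list 2 of 16 flanked a member (12.5%, 95% interval 3.50 to 36.0%), at 14.3 per megabase. These were sens, a zinc finger gene of sensory organ precursors (182.8), and pnt, an ETS factor gene (157.8). Of the GATA list 1 of 6 did, srp, with 228.9.

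In the Sox family, 3 of 8 genes flanked a member, at 19.6 per megabase. Sox21a and Sox21b shared one of 190.4, with 61.2, 57.8 and 71.7 in replicates 1, 2 and 3, and SoxN had one of 122.4, matched in 2 replicates. Sox15 itself (2R, 14201390 to 14212413, minus strand) did not flank a member. The nearest lay 204620 bp from the gene, between Sin1 and Achl, with a signal of 455.1.

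The other lists of protein-coding genes had counts near or below the background. Axon wiring surface proteins border a median of 11.3 kb, yet 3 of 54 flanked a member (5.56%, 95% interval 1.91 to 15.1%), at 2.37 per megabase, led by dpr17 with 257.6, dpr20 with 162.0 and beat-IIb with 132.4. Chemoreceptor and odorant binding protein genes gave 9 of 139 (6.47%, 95% interval 3.44 to 11.8%) at 9.54 per megabase, and 16 of 147 (10.9%) as nearest protein-coding gene, against 9.29%. As nearest protein-coding genes Gr93d had a member of 625.8, and Obp56g and Obp56h shared one of 596.3. Cuticle genes gave 8 of 131 (6.11%, 95% interval 3.13 to 11.6%), at 27.8 per megabase. Osi21, as nearest protein-coding gene, had a member of 396.8, Cpr72Ea one of 324.4 and Cpr51A one of 278.6. Ribosomal protein genes gave 3 of 49 (6.12%, 95% interval 2.10 to 16.5%, which includes the background): RpL13 with 231.4, RpLP0 with 199.8 and RpL22-like with 120.8. Detoxification genes gave 2 of 62 (3.23%), and 7 of 65 (10.8%) as nearest protein-coding gene, led by the cytochrome P450 genes Cyp9f2 with 544.2, Cyp9b2 with 342.9 and Cyp6v1 with 265.2. Proteases gave 0 of 20, which allows a share of up to 15%, and heat shock genes 0 of 15, which allows up to 20%, both limits being 3 counts of the total. Only Hsp60B of that list was a nearest protein-coding gene, 12791 bp from the member near ds with 810.2.

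Non-coding genes were frequent neighbours. Long non-coding RNA genes gave 252 of 1388 (18.2%, 95% interval 16.2 to 20.3%), at 27.9 members per megabase, and they border a median of 6.21 kb. The highest were lncRNA:CR44544 with 1831, lncRNA:CR44953 with 830.3, and lncRNA:CR44988 and lncRNA:CR46260, which shared 810.2. Small RNA genes gave 17 of 97 (17.5%, 95% interval 11.2 to 26.3%) at 57.3 per megabase, and they border a median of 4.46 kb. The highest were tRNA:Ile-TAT-1-2 with 832.2, tRNA:Lys-CTT-1-11 with 596.3 and tRNA:Ile-TAT-1-1 with 477.6. The isoleucine tRNA genes are those at the strings of peaks on 3L described above. Those strings held 10 and 5 of the 36 members on which the density of the small RNA list rests. Pseudogenes gave 6 of 162 (3.70%) at 2.49 per megabase, led by CR33283 with 202.6, CR31958 with 195.6 and CR46424 with 168.2.

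Base composition changed sharply at the summits. The mean GC content within 100 bp was 33.9% ± 5.66 (SD over 738 members), against 41.6% and 41.5% in windows 1000 bp to the left and right and 40.8% over all bases that meet the rule. Within 25 bp it was 31.1%. At 444 summits (60.2%) the GC content was below that of both flanking windows. In steps of 20 bp, GC content was highest at 280 bp to the left (47.4%) and at 320 bp to the right (47.5%). These values, and the 47.3% at 280 bp to the right, lay above the level at 1000 bp. Peaks inside genes had 34.4% and promoter peaks 34.0% within 100 bp, and the profile of promoter peaks was at 44.5% and 44.8% at 280 bp, against 44.9% and 44.4% at 1000 bp. Farther out the promoter profile reached 46.2% at 480 bp to the left and 46.1% at 500 bp to the right. Peaks inside genes had 45.7% and 46.2% at 280 bp, against 41.1% and 40.6% at 1000 bp. In the replicates' own lists intergenic summits had 34.3% ± 0.893 (SD, n = 3).

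**Figure D5:**
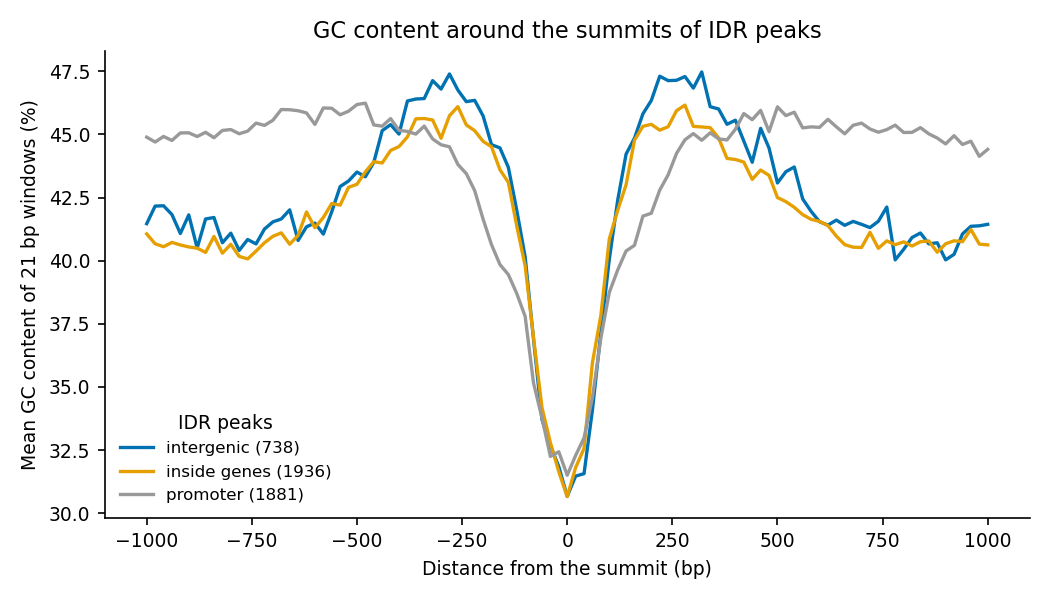
Mean GC content in windows of 21 bp against distance from the summit for the reproducible peaks of each class. All classes dip to 30.7 to 31.5% at the summit. The intergenic profile has shoulders of 47.4% at 280 bp to the left and 47.5% at 320 bp to the right. It returns to 41.5% and 41.4% at 1000 bp.

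Short sequence patterns were counted on either strand within 100 bp of the summits and in a window of the same length centred 1000 bp away, on the side away from the nearest start site. Of 17 patterns 1 differed after adjustment over all of them: TATAAA, the TATA box core, was found at 265 summits (35.9%) and in 176 flanks (23.8%), a ratio of 1.51 (exact two-sided McNemar test with Benjamini-Hochberg adjustment, adjusted p = 1.21e-05). It was found in 23.3% of all windows of this length whose centre meets the rule, in 36.3% at summits inside genes and in 40.2% at promoters. The pattern holds no G or C, and the summits had less GC than the flanks; the part of this was not tested. Members share gaps and some overlap, which the test does not allow for. At an unadjusted p under 0.05, 5 patterns differed. On the intergenic peaks of replicates 1, 2 and 3, each taken from its own list, the same exact test called 6, 4 and 2 patterns. TATAAA was no longer called among members in the stronger part of the reproducible set (exact test, adjusted p = 0.0663) or in windows reaching 250 bp (adjusted p = 0.179).

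The Sox core showed no difference beyond the threshold at intergenic summits. AACAAT was found at 179 of 738 summits (24.3%, 95% interval 21.3 to 27.5%) and in 144 flanks (19.5%), with 154 members positive only at the summit and 119 only in the flank (exact McNemar test, adjusted p = 0.131). Its share in windows that meet the rule was 21.2%, and it was found at 24.5% of summits inside genes and 24.8% of those at promoters. In replicates 1, 2 and 3, on their own intergenic peaks, the ratio of summit to flank was 1.33, 1.19 and 1.14. When only peaks matched in both replicates 1 and 2 were kept, the ratio was 1.46 and passed the threshold (exact McNemar test, adjusted p = 0.0126). The adjusted p without replicate 1 was 0.101 and without replicate 2 it was 0.168. ACAAT, which is contained in AACAAT, gave 49.9% at summits and 42.7% in flanks (exact test, adjusted p = 0.0677) and 46.5% in windows that meet the rule. ACAAAG, a pattern also bound by TCF factors, gave 12.9% and 15.7% (exact test, adjusted p = 0.242), and 14.9% in windows that meet the rule. Any of these Sox patterns was found at 414 summits (56.1%) and in 381 flanks (51.6%). By summit share alone, without flanks, AACAAT was as frequent in the stronger 369 members (24.4%) as in the weaker 369 (24.1%). Its ratio of summit to flank was 1.58 among members in the stronger part of the reproducible set (exact McNemar test, adjusted p = 0.0663). Among members matched in all 3 replicates it was 1.42 (exact test, adjusted p = 0.0512). In windows reaching 50 bp the ratio was 1.42, and in those reaching 250 bp it was 1.05. None of these passed the threshold. Both AACAAT and ACAAT are A/T-rich, and the summits had less GC than the flanks. What part this has in their ratios was not tested.

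The remaining patterns, none of which passed the threshold, mark other classes of factor. The homeodomain core TAATTA gave 17.1% at summits and 13.3% in flanks (exact test, adjusted p = 0.131), the GATA pattern AGATAA 13.96% and 11.7% (adjusted p = 0.347), and GAGAGA, bound by GAGA factor, 9.08% and 5.96% (adjusted p = 0.131). TTGCATA gave 7.18% and 4.61% (exact test, adjusted p = 0.131), the E-box CAGCTG 5.15% and 7.32% (adjusted p = 0.215), the nuclear receptor site AGGTCA 4.07% and 4.88% (adjusted p = 0.718), CAGGTAG 0.949% and 0.542% (adjusted p = 0.718), and the CA repeat CACACACA 2.17% and 4.07% (adjusted p = 0.131). In windows that meet the rule the shares were 14.3% for TAATTA, 11.3% for AGATAA, 6.68% for GAGAGA, 5.68% for TTGCATA, 6.88% for CAGCTG, 5.08% for AGGTCA, 0.884% for CAGGTAG and 3.98% for CACACACA.

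The DNA replication-related element TATCGATA was found at 1 intergenic summit (0.136%), against 4.25% of promoter summits, and Motif 1, GGTCACACT, at 2 (0.271%), against 1.81%. Windows that meet the rule held them at 0.447% and 0.0904%, and the classes of peak were not tested against each other. The summit with TATCGATA lay on 3R between Alp13 and lncRNA:CR45054, 3629 bp from a start site (signal 172.8). Those with Motif 1 lay between lncRNA:CR44363 and CG7560 on 3L (168.9) and between slp1 and slp2 on 2L (167.4), neighbouring forkhead genes of segmentation. The Su(H) site CGTGGGAA (0.452% of windows that meet the rule) was found at 1 summit, the strong peak next to COX7AL2 with 964.3. The CTCF pattern AGGTGGCGC (0.092% of such windows) was found at 3 summits: next to CG14762 (214.0), next to RabGGTa (130.3) and next to sbr (126.7). The Grainy head site AAACCGGTT (0.0693% of such windows) was found at 0 of 738, which allows a share of up to 0.407% (3 counts of the total), and in 2 flanks.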

How the data were processed

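Peak positions and signal values are those the authors deposited as peak lists of ChIP-seq in dm6 coordinates: a relaxed list per replicate, a pooled list and an optimal irreproducible discovery rate (IDR) set. The scale of the signal is not stated, and it was compared only within 1 list. The listing names a control file, which was not analysed here; the sources name no aligner, peak caller or read number, so depth is unknown. Sonication gave 200 to 800 bp fragments, per the labels.

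Genes came from Ensembl release 115 of BDGP6 without transposable elements, sequence from RefSeq Release 6, whose arm lengths equal those of dm6. A replicate matched an IDR peak when 1 of its 4555 strongest peaks covered at least 50% of that peak. Shares have 95% Wilson intervals, with 3 counts of the total as the limit of a share of 0, patterns the exact McNemar test with Benjamini-Hochberg adjustment over 17 and a threshold of 0.05 (SciPy 1.17.1). Named items are the 12 strongest members, the 5 farthest, those at the cutoff, all of the 3 fullest gaps, up to 3 genes per list by signal, and members with rare patterns. The members and lists were chosen with earlier results of these data known. Of the symbols in the lists, 8 had no match. The steps were tested on simulated data. The labels call the replicates biological, and p-values of patterns measure spread between regions, not animals.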

Additional observations from a re-analysis of the deposited data

How the results depend on the processing

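Samples could not be paired between groups because the series has 1 group. The intergenic share was 20.3% with start sites at 250 bp, 13.96% at 1000 bp, 19.5% with protein-coding genes only, 14.7% where the whole peak had to meet the rule, 13.4% in the stronger part of the reproducible set (the 2277 peaks of highest signal), 15.4% among peaks matched in all 3 replicates, and 15.76 to 15.79% when each replicate was left out by keeping only peaks matched in both others. In the same order of settings, the start site distance had a median of 1988.5, 3841, 4989, 3593, 2713 and 3137 bp, then 3130.5 to 3209 bp without a replicate, and 3034.5 bp with transposable elements as genes. The divergent share was 30.4% at 250 bp, 26.9% at 1000 bp, 26.0% with transposable elements as genes, 25.5% in the stronger part, 28.5% in peaks matched in all 3, and 27.97 to 28.5% without a replicate. The ratio of 3L to the X was 1.89 at 250 bp, 2.55 at 1000 bp, 1.99 with protein-coding genes, 2.16 in the stronger part and 2.32 to 2.38 without a replicate. The ratio of intergenic to promoter median signal was 0.885 in the stronger part and 0.817 to 0.830 without a replicate. The settings without a replicate kept the summits and signals of the pooled set, to which all 3 replicates contribute.

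The share matched in all 3 replicates was 96.4% in the stronger part, 74.1% with any overlap, 21.3% with 90% of the peak covered, 96.6% with the whole relaxed lists, and 76.4 to 80.9% when 2 replicates had to match. The number of patterns called was 5 at 250 bp, 0 in the stronger part (exact McNemar test, 2 at an unadjusted p under 0.05), 2 with the flank on the side of the nearest start site and 1 to 2 without a replicate. TATAAA was no longer called in the stronger part (ratio 1.47, exact test, adjusted p = 0.0663) and in windows of 250 bp to each side (1.12, adjusted p = 0.179). With start sites at 250 bp AACAAT was called (1.26, exact test, adjusted p = 0.042). The genes flanking a member numbered 496 for the stronger 369 members, against 840. The RefSeq annotation kept 738 of 738 members, and how far its gene models are independent of those of Ensembl was not examined. In these alternatives neither ratio of patterns changed direction. The cause of these shifts was not tested beyond the settings themselves. The number of libraries, 3, limits what the replicate spread can show.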
